A study of Mus musculus with 2 samples.

Results

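Stefins and cystatins are inhibitors of papain-like cysteine proteases. The 10 genes described here are the stefin A genes Stfa1, Stfa2, Stfa3, Stfa2l1, Csta1 and BC100530, together with Cstb, Cst3, Cst6 and Cst7. They were found by gene name, or by the current symbol of a probe's RefSeq transcript, among 27238 genes with a named probe. Each was read by 1 probe of 60 bases, spotted once per array. The genes were matched by name, but the set was chosen by earlier results of these data, the colon over blood ratios of these same arrays, so those ratios are given as a description and carry no test.

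A pool of CX3CR1high CD11b+ CD11c+ cells from the large intestinal lamina propria of CX3CR1gfp/+ mice was compared with a pool of Ly6c+ CD11b+ blood monocytes from C57BL/6J mice. The mice of the first pool carry a green fluorescent protein gene in place of one copy of Cx3cr1, so genotype, tissue and cell type differed together and cannot be told apart. No age, sex or treatment is given in the labels for either pool. Numbers of n = 10 (CX3CR1high cells) and n = 6 (monocytes) are given in the design text, which does not say what they count. The pools were compared on 2 arrays: on array 1 Cy5 labelled the colon pool and Cy3 the blood pool, and array 2 had the reverse. The arrays therefore form 1 replicate of the comparison, and the SD over both arrays measures technical spread alone.

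Stefins act inside the cell: they lack a signal peptide and bind cathepsins in the cytosol. Cystatins of the Cst3 kind are secreted or sorted into the endosomal pathway, where they meet lysosomal cathepsins and legumain. In mouse the stefin A gene has been duplicated into a cluster on chromosome 16, and transcripts of that cluster are best known from neutrophils and other myeloid cells of marrow and blood, whereas Cst3 and Cstb are widely expressed.

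Of the 10 genes, 8 were measured, which means that the scanner software flagged a pool as well above background, and the same pool each time, on array 1 and array 2. Csta1 and Cst6 were not. A gene was called higher or lower in the colon pool when its ratio was at least 2-fold on each array. Calls in either direction took in 5 members, and 18.6% of the 15680 genes measured. By that rule 3 members were lower in the colon pool, all of them stefin A genes, beside 4.46% of genes measured. The 2 higher members were Cst7 and Cstb, beside 14.2% of genes measured. The other 3 measured members, Stfa1, Stfa3 and Cst3, were not called. The median log2 ratio of colon over blood was -0.72 over the 8 measured members and 0.06 over all genes measured. Stfa1, Stfa3, Stfa2l1 and BC100530 passed the filter through the blood pool alone, where they were the brighter, so neither that median nor the count of lower members is support for a direction. With both pools required well above background on both arrays, Stfa2 was the 1 member left as lower.

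The arrays and sort genes were as follows. Of 43020 probe spots per array, 56.2% to 59.6% were well above background in the colon channel and 52.9% to 54.1% in the blood channel, and none was saturated. Itgax, which encodes CD11c, had a log2 ratio of 3.35 ± 0.08 (SD, 2 arrays), and Ly6c1 had -3.28 ± 0.09. Itgam, which encodes CD11b, had -0.46 ± 0.33 and Cx3cr1 had 0.10 ± 0.25, and neither was called. Ly6C-high monocyte markers were lower in the colon pool in 9 of 9 measured genes, and intestinal macrophage markers were higher in 11 of 12. Fibroblast markers were also higher in 8 of 8, epithelial markers in 8 of 10 and B and plasma cell markers in 7 of 8, so the colon pool's RNA included transcripts that define other cell types. In pooled RNA, fewer cells of a type and less RNA per cell cannot be told apart.

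**Figure D1:**
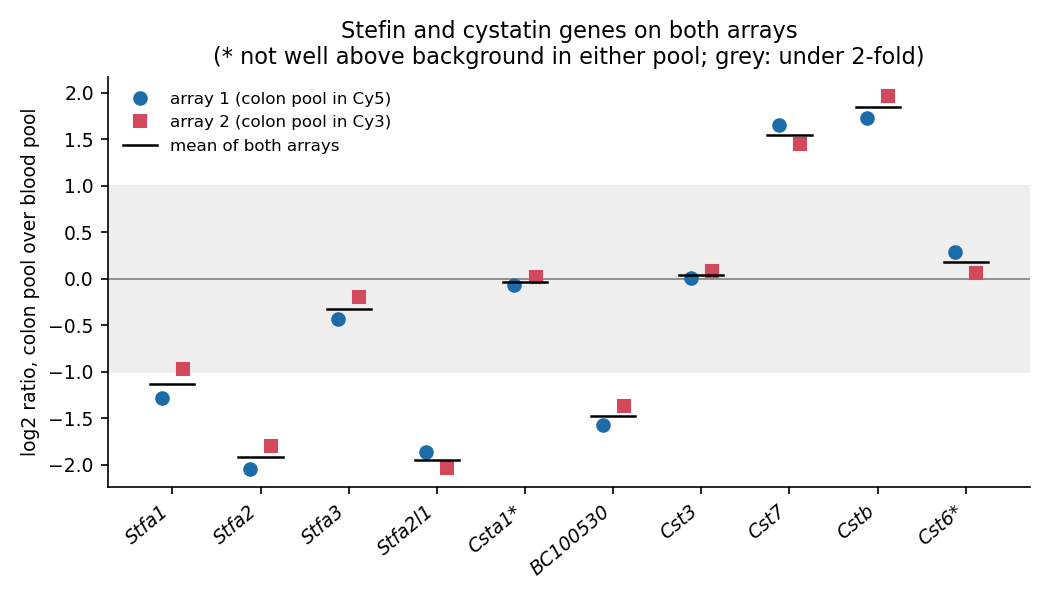
Log2 ratio (colon over blood) of the 10 stefin and cystatin genes on array 1 (circles) and array 2 (squares), with the mean of both arrays as a bar and the range under 2-fold in grey. Stfa2, Stfa2l1 and BC100530 lie below the grey range on both arrays, Cst7 and Cstb above it, and Stfa1 at its lower edge.

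The stefin A genes are near copies, so the probes that read them are shown first. The probe of Stfa2l1 lies in 2 blocks across an intron at chr16:36160118-36161876 on the plus strand (mm9, as are all probe positions). It shares a run of 26 bases with a probe that has no gene name in the files and lies at chr16:36136075-36137745, plus strand. The BC100530 probe (chr16:36359525-36359584, minus strand) shares 25 bases with that of 2010005H15Rik, now Csta2 (chr16:36257452-36257511, plus strand), of which the first 30 bases are shown. The Stfa3 probe (chr16:36450693-36450752, minus strand) shares 22 bases with that of Gm5483, now Cstdc4 (chr16:36188043-36188102, plus strand). Among all 39429 probes, these were the partners with a run of 20 or more bases in common with a member's probe. The Stfa1 probe (chr16:36285398-36285457, plus strand) and the Stfa2 probe (chr16:36404032-36404089, minus strand) share at most 9 bases, and the stretches of 30 bases around that run are given. Capitals mark the shared runs, 5′ to 3′.
Stfa2l1: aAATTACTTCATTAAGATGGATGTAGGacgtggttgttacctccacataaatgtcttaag
Probe without a gene name: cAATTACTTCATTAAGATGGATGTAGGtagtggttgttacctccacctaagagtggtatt
BC100530: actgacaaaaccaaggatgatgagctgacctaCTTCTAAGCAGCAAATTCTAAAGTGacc
2010005H15Rik: CTTCTAAGCAGCAAATTCTAAAGTGtcctg
Stfa3: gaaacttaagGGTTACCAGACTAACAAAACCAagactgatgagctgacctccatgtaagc
Gm5483: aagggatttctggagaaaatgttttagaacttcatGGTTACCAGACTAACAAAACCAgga
Stfa1: ttcagccatgAATAAAGAAatattcctcaa
Stfa2: tgcggccatcAATAAAGAAgcatttttgaa

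No 2 member probes were identical. The files nevertheless list 2 transcripts under both the Stfa2 and the Stfa2l1 probes, 2 under both BC100530 and BC117090, and 1 under both Stfa1 and BC117090, although BC117090 was not well above background in either pool. Cross-hybridisation between copies was not tested, so each stefin A value belongs to a probe and its near copies rather than to a gene with certainty.

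Stfa2 was read above background in both pools on both arrays. Its spot intensity before correction was 88.4 in the colon pool and 309 in the blood pool on array 1, and 65.0 and 631 on array 2. The blood pool was the brighter on both arrays. The log2 ratio of colon over blood was -2.04 on array 1 and -1.80 on array 2, with a mean of -1.92 ± 0.17, or 3.79-fold higher in the blood pool.

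Stfa2l1 encodes a protein much like the Stfa2 product. Its intensities were 103 (colon) and 305 (blood) on array 1, and 59.0 and 724 on array 2. The log2 ratio was -1.86 and -2.03 on the respective arrays, with a mean of -1.95 ± 0.12 (3.86-fold higher in blood). Its mean was the lowest among the members in the main setting, while Stfa2 was lower on array 1 and Stfa1 was lower with the scanner software's ratio. Stfa2 and Stfa2l1 differed from each other by less than the SD of either. The colon pool was well above background on array 1 and not on array 2, so the size of the ratio on array 2 is set partly by background.

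BC100530, now named Cstdc5, is another copy in the cluster. It read 70.7 (colon) and 180 (blood) on array 1, and 58.4 and 349 on array 2, and again only array 1 had the colon pool well above background. Its log2 ratios of -1.57 and -1.37 gave a mean of -1.47 ± 0.14, or 2.77-fold higher in the blood pool. It was the called member nearest to the limit.

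Stfa1 fell just outside the rule. Its intensities were 54.3 (colon) and 119 (blood) on array 1, and 51.6 and 198 on array 2. The colon pool was not well above background on either array. Its measured log2 ratios were -1.28 and -0.97, with a mean of -1.13 ± 0.22, and array 2 missed the limit. A bound took, on each array, the lowest colon signal well above background or the spot's own colon signal, whichever was higher. With that bound Stfa1 was 2.14-fold higher in the blood pool on the mean of both arrays, beside a measured 2.19-fold. Spots not well above background can lie above that lowest signal, so the bound is no sure minimum.

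Stfa3 was dim in both pools. It read 57.0 (colon) and 66.1 (blood) on array 1, and 55.2 and 87.5 on array 2, with the blood pool alone well above background. The log2 ratios were -0.43 and -0.20, with a mean of -0.32 ± 0.16. The same kind of bound gave 1.24-fold higher in blood, which is also its measured fold and under the limit for a call. The bound therefore adds nothing to the ratio here.

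Csta1, listed in the files under the older name Csta, was not well above background in either pool on either array. Its intensities were 49.2 and 51.5 for colon and blood on array 1 and 48.2 and 50.8 on array 2, against a local background of 41.0 to 47.5. No ratio was therefore measured for it (chr16:36120084-36120143, minus strand). At this signal a transcript of low abundance was not detectable, which does not show that it was absent.

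**Figure D2:**
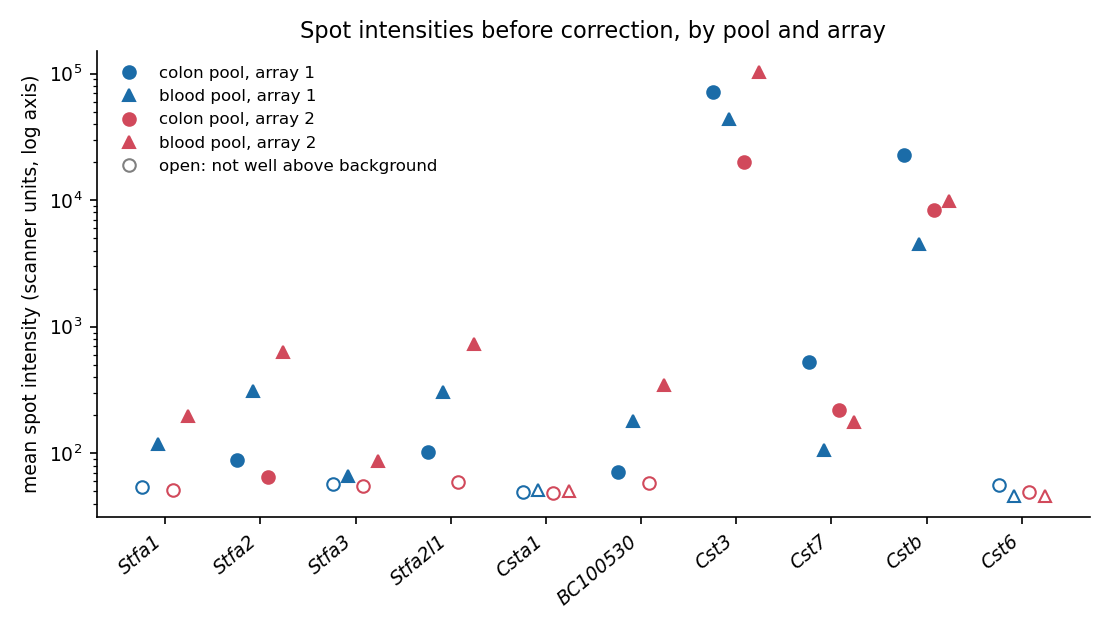
Spot intensity before correction, on a log axis, of each of the 10 genes in the colon pool (circles) and blood pool (triangles) on array 1 and array 2, with open symbols where a pool was not well above background. The stefin A probes lie near background in the colon pool, and the 5 measured ones are well above background in the blood pool, at 66.1 and 87.5 for Stfa3 and 305 and 724 for Stfa2l1; heights of different probes are not comparable as levels.

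The cluster holds further stefin A copies that are not among the 10 genes. In all, 11 named probes of the cluster lay over 331 kb of chromosome 16, from Csta1 to Stfa3. On both arrays, the blood pool rose well above background for 6 of them and the colon pool for 1, Stfa2. Lower in the colon pool were 4 of the 11, and none was higher, beside 4.46% and 14.2% of all genes measured. Of those 4, Stfa2l1, BC100530 and Gm5483 passed the filter through the blood pool alone, and requiring both pools left 1, Stfa2. The fourth was Gm5483, with intensities of 68.9 (colon) and 199 (blood) on array 1 and 54.9 and 405 on array 2, and a mean log2 ratio of -1.62 ± 0.07. Gm5416 (now Csta3), 2010005H15Rik, Gm4758 (now Cstdc3) and BC117090 (now Cstdc6) were not well above background on both arrays of a pool, with intensities from 44.4 to 73.5, the highest being Gm5416 in the blood pool on array 2, the single reading among them that passed. LOC100044745, a predicted transcript within the cluster, was likewise dim, at 43.2 to 47.1.

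The genes read in blood did not form an unbroken stretch. By the distance of their probes from that of Csta1, Stfa2l1 lay at 40 kb, Gm5483 at 68.0 kb, Stfa1 at 165 kb, BC100530 at 239 kb, Stfa2 at 284 kb and Stfa3 at 331 kb. Stfa2l1 and Gm5483 were next to each other among the named probes, as were BC100530, Stfa2 and Stfa3. Copies that were not measured lay on either side of Stfa1. Gm5416 at 97.7 kb and 2010005H15Rik at 137 kb lay before it, and Gm4758 at 193 kb and BC117090 at 214 kb after it.

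The probe without a gene name, chosen after its values were seen, lay 16 kb from the Csta1 probe. It read 50.6 (colon) and 116 (blood) on array 1, and 48.1 and 243 on array 2. Its mean log2 ratio was -1.30 ± 0.05, or 2.47-fold higher in blood. The colon pool was not well above background on either array, and the bound used for Stfa1 gave 2.33-fold. The unnamed probe shares the capitalised run of 26 bases with the Stfa2l1 probe, and whether it read the same transcript was not tested.

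2010005H15Rik shares the capitalised 25 bases with BC100530 yet was not measured. Its probe is spotted 10 times per array. The log2 ratio averaged -0.04 on array 1 (SD 0.09 over the 8 spots used) and -0.15 on array 2 (SD 0.11 over the 9 spots used). Its blood pool readings were 54.4 and 59.9 on arrays 1 and 2, not well above background on either.

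Genes next to the cluster went both ways. Within 300 kb on either side, 14 further genes had a probe and 12 were measured. Of these, 4 were higher in the colon pool and 2 were lower, beside 14.2% and 4.46% of all genes measured. The higher ones all lay beyond Stfa3, and the lower ones lay before Csta1. Cd86, which encodes a costimulatory ligand of antigen-presenting cells, lay 484 kb from the Csta1 probe and had a log2 ratio of 3.58 ± 0.09. On the other side, Dtx3l and Parp9, the interferon-responsive genes of a paired ubiquitin ligase and ADP-ribosyltransferase, had ratios of -1.76 ± 0.10 and -1.40 ± 0.34. These genes were named after their values were seen.

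**Figure D3:**
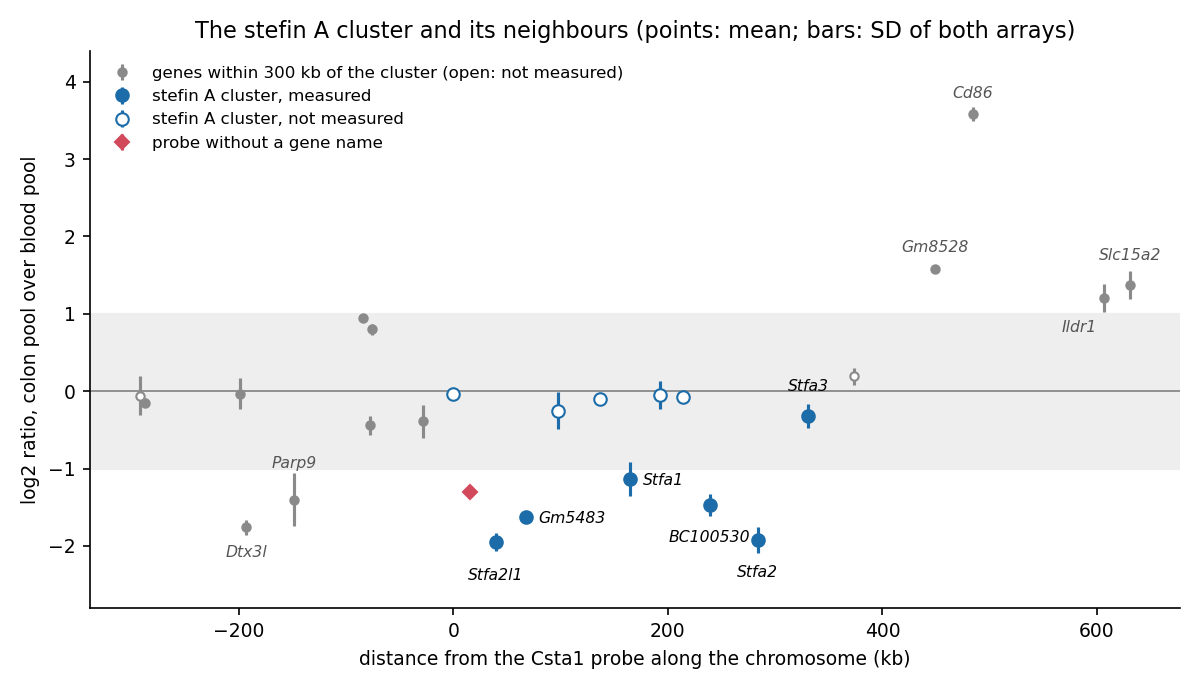
Mean log2 ratio of colon over blood, with the SD of both arrays, against the distance in kb from the Csta1 probe, for the 11 stefin A cluster probes (blue; open where not measured), the probe without a gene name (red) and genes within 300 kb (grey; open where not measured). The called stefin A probes lie between -1.47 and -1.95, on either side of a stretch with copies that were not measured. Cd86 lies at 3.58 on the far side of the cluster.

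Because several copies were read together in the blood pool, the sequences before their starts were compared. RefSeq (GRCm38.p6) gives a promoter for 10 of the cluster genes, and where Gm4758 has several starts the promoter most like that of Stfa2 was taken. Over the 250 bases before the start, identity between pairs ranged from 42.2% to 89.4% over 45 pairs. The most alike pair was Stfa2 and Stfa2l1 (89.4%), followed among the members by Stfa1 and Stfa3 (83.1%) and by BC100530 and Stfa1 (81.2%). Over the 15 pairs of Stfa1, Stfa2, Stfa3, Stfa2l1, BC100530 and Gm5483, identity was at least 65.8%. The promoter of Gm4758, which was not measured, was from 60.2% (BC100530) to 70.0% (Gm5483) identical to theirs. Against these, the Cst7 and Cst3 promoters were 45.2% and 43.0% identical to that of Stfa2.

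A run of 12 bases, ACCTTTAAAACC, chosen after the sequences were seen as the longest around TTTAAA that the copies read in blood share, lay in 8 of the 10 cluster promoters on either strand. It lay in 11 of 32851 promoters of all genes, or 0.0335%, a count that includes the cluster's own promoters. Those 8 included Stfa1 and Stfa3, which were not called, and Gm5416 and Gm4758, which were not measured. The run contains TTTAAA, which was in 9 of the 10 and in 12.1% of all promoters. The letters GAGGAA, often found in sites of the myeloid factor PU.1, were in 8 of the 10, against 23.3% of all promoters. The letters GAGGAG were also in 8 of the 10, against 28.7% of all promoters. Outside the cluster, the Cst3 promoter held both, and that of Cst7 held the second of them and also the inner hexamer of the run. Cstb and Cst6 had no promoter among the sequences searched, so they were not examined. TATAAA was in none of the 10 and in 12.4% of all promoters. Many of the cluster promoters are alike in sequence, so their counts do not come from independent sequences and are no measure of enrichment. These matches describe the letters of the copies, and binding was not tested. The last 80 bases before the start are shown for the copies read in blood, with the run of 12 bases in capitals (GRCm38.p6): Stfa2 at chr16:36408364-36408443, minus strand; Stfa2l1 at chr16:36156731-36156810, plus strand; Gm5483 at chr16:36184132-36184211, plus strand; Stfa1 at chr16:36277068-36277147, plus strand; Stfa3 at chr16:36455393-36455472, minus strand; BC100530 at chr16:36367571-36367650, minus strand.
Stfa2: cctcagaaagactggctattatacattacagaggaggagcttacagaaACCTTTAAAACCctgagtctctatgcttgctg
Stfa2l1: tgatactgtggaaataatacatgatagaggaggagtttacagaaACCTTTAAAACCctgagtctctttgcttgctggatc
Gm5483: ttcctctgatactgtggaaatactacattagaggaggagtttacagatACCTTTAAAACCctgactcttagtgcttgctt
Stfa1: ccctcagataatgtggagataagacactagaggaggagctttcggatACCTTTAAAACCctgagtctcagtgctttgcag
Stfa3: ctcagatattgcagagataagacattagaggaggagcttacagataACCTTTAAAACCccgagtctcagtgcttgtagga
BC100530: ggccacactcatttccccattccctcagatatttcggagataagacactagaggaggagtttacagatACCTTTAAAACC

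In Stfa2 and Gm5483 the run ended 21 bases before the annotated start, in Stfa1 22, in Stfa3 23 and in Stfa2l1 25. In BC100530 it ended at the base before the start. Since the run was defined as one these 6 copies share, its presence in them is no result.

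Cstb encodes stefin B, the other cytosolic stefin, an inhibitor of cathepsins B, L and S that is made in most tissues. Its intensity was 22578 in the colon pool and 4530 in the blood pool on array 1, and 8397 and 9860 on array 2. The blood channel was the brighter on array 2 before normalization, as it was over all spots of that array, where the median was 79.9 in the blood channel and 67.1 in the colon channel. After loess normalization within each array, the log2 ratio of colon over blood was 1.73 and 1.97, with a mean of 1.85 ± 0.17 (3.61-fold higher in the colon pool). The order of the pools on array 2 therefore rests on that normalization. With median centring in place of loess, the Cstb ratio was 2.06 on array 1 and 0.11 on array 2, and the call was lost. The Cstb probe lies at chr10:77890058-77890117, plus strand.

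Cst7 encodes cystatin F, also called leukocystatin, which is made by immune cells and carried to lysosomes, where it lowers the activity of cathepsins including the activating protease cathepsin C. Its intensities were 529 (colon) and 106 (blood) on array 1, and 218 and 178 on array 2, and the colon pool was the brighter on both arrays. The log2 ratio was 1.65 and 1.45, with a mean of 1.55 ± 0.14 (2.93-fold higher in the colon pool). Under median centring it was 1.92 and 0.53, which ended the call and left the direction as it was. The Cst7 probe lies at chr2:150404490-150404549, plus strand.

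Cst3 encodes cystatin C, the main secreted cystatin, whose transcript is abundant in macrophages and dendritic cells. It was bright in both pools, at 71144 (colon) and 44164 (blood) on array 1 and at 20034 and 103038 on array 2. Each array alone put the pool that carried Cy5 higher before normalization. After loess the log2 ratio was 0.01 and 0.08, with a mean of 0.04 ± 0.04, so no difference larger than the spread of the arrays was measured. Under median centring the arrays gave 0.43 and -2.02, a mean of -0.79 with opposite signs. The Cst3 probe lies at chr2:148697681-148697740, minus strand.

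Cst6 encodes cystatin M, an inhibitor of legumain and cathepsins best known from skin and other epithelia. It was not well above background in either pool, at 56.0 (colon) and 46.0 (blood) on array 1 and 49.5 and 46.0 on array 2 (chr19:5347982-5348041, minus strand).

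The spread between arrays can be set beside the spread within an array. Probes spotted 10 times and as bright as Cstb had a median SD over spots of 0.03 on each array (25 probes), while the Cstb ratio differed by 0.24 between the arrays. Probes as bright as Cst7 had 0.08 on each (91 probes), and the Cst7 ratio differed by 0.20. Probes as bright as Stfa1 had 0.11 on each (226 probes), and its ratio differed by 0.31. For Csta1, which was not measured, the ratios were -0.07 and 0.02, beside an SD of 0.12 and 0.11 (190 probes). The difference between the arrays includes the dye swap. A difference between arrays and an SD over spots are unlike measures, so they do not divide the technical spread into parts.

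The background correction and the choice of ratio moved the dim stefin A probes far more than the bright cystatin probes. The main ratios used a background correction that adds an offset of 50 to both pools, which by its construction draws the ratios of dim spots toward 0. With an offset of 16 the mean log2 ratio of Stfa2 went to -2.45, that of Stfa2l1 to -2.47, that of BC100530 to -2.06 and that of Stfa1 to -1.76. With the scanner software's own log ratio they were -3.88, -4.14, -3.86 and -4.60, and Stfa3 reached -2.04. Apart from Stfa2 these are given without a fold, because the colon pool was not well above background on array 2 for Stfa2l1 and BC100530 and on either array for Stfa1 and Stfa3. Cstb kept to 1.84 and 1.85 under the same changes. Stfa2, Stfa2l1 and BC100530 were lower in the colon pool by every scaling and background correction tried, and Stfa1 was below 0 in each. For Stfa2, the copy read above background in both pools throughout, the fold thus ran from 3.79-fold to 14.7-fold between the main and the software's ratio. Csta1, which was not measured, stayed between -0.07 and 0.01.

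**Figure D4:**
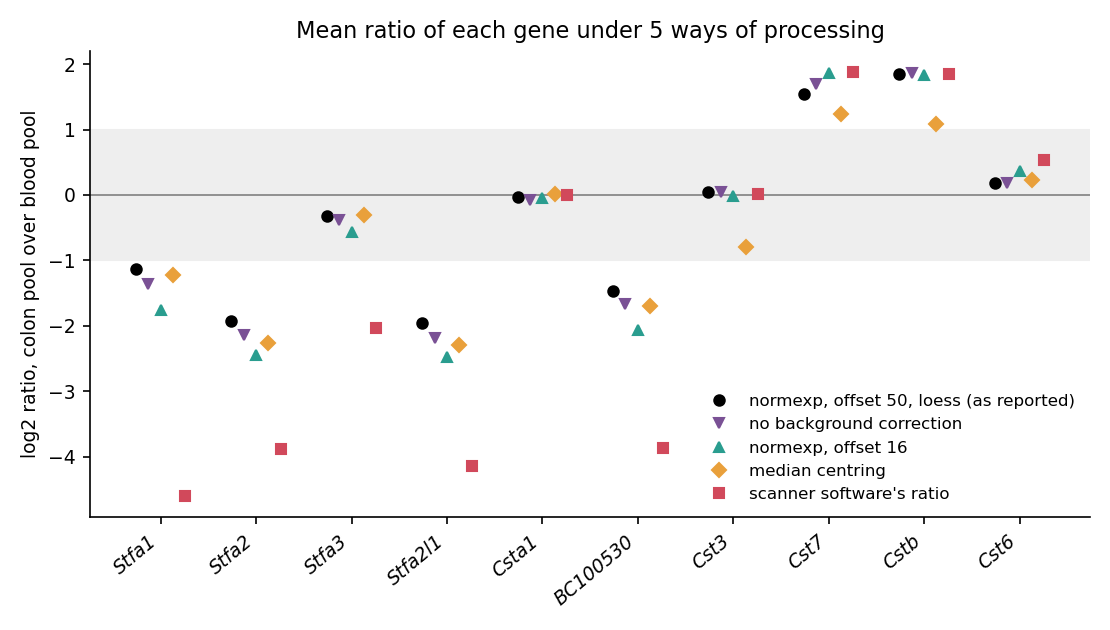
Mean log2 ratio of colon over blood for each gene under 5 ways of processing: the main setting, an offset of 16, no background correction, median centring in place of loess, and the scanner software's log ratio. Among the stefin A genes, the 5 measured ones spread downward, to -4.60 for Stfa1 with the software's ratio, and Csta1 stays near 0, while Cstb stays between 1.84 and 1.86 except under median centring, where it is 1.08.

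Lysosomal cysteine proteases, the enzymes that these inhibitors bind, were examined as a list of 11 genes. The list was drawn up with earlier results of these data known. All 11 were measured, and 7 were higher in the colon pool, beside 14.2% of all genes measured. None was lower, beside 4.46%. The median log2 ratio was 1.27, beside 0.06 over all genes measured. Under median centring 4 remained higher, the median was 0.92, and the uncalled Ctsh and Ctss went below 0. Lgmn, which encodes legumain, had the largest ratio, 3.94 ± 0.05 (15.4-fold). In the main setting the gene of cathepsin L, Ctsl, followed at 3.24 ± 0.20 and that of cathepsin F, Ctsf, at 2.94 ± 0.08. Ctsf was above Ctsl with an offset of 16 (3.44 and 3.23), under median centring (2.56 and 2.45) and with the software's ratio (3.71 and 3.23). Ctsk had 2.71 ± 0.03, and Lgmn, Ctsl, Ctsf and Ctsk were called under median centring too.

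The genes of cathepsins B, Z and C were also higher by the main processing. Ctsb had a ratio of 2.07 ± 0.11, Ctsz 1.27 ± 0.06 and Ctsc, the gene of cathepsin C, 1.24 ± 0.03, and all 3 lost their calls under median centring, at 1.21, 0.44 and 0.45. Ctsw (0.90 ± 0.17), Ctsh (0.62 ± 0.08), Ctss (0.13 ± 0.47) and Ctso (-0.24 ± 0.19) were not called. Cathepsin S is a main antigen-processing protease of myeloid cells, and its ratio was 0.47 on array 1 and -0.20 on array 2, so its direction differed between the arrays.

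Inhibitor and protease ratios stood side by side as follows. By the main processing Cstb and Cst7 were higher in the colon pool together with the genes of cathepsins B, L and C. Ctss, Ctsh, Ctsw and Ctso were not called. Under median centring Cstb, Cst7, Ctsb and Ctsc lost their calls and Ctsl kept its own. In the main setting the ratio of Cst3 was near 0 while those of Lgmn and Ctsl were above 3. No stefin A gene was higher.

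**Figure D5:**
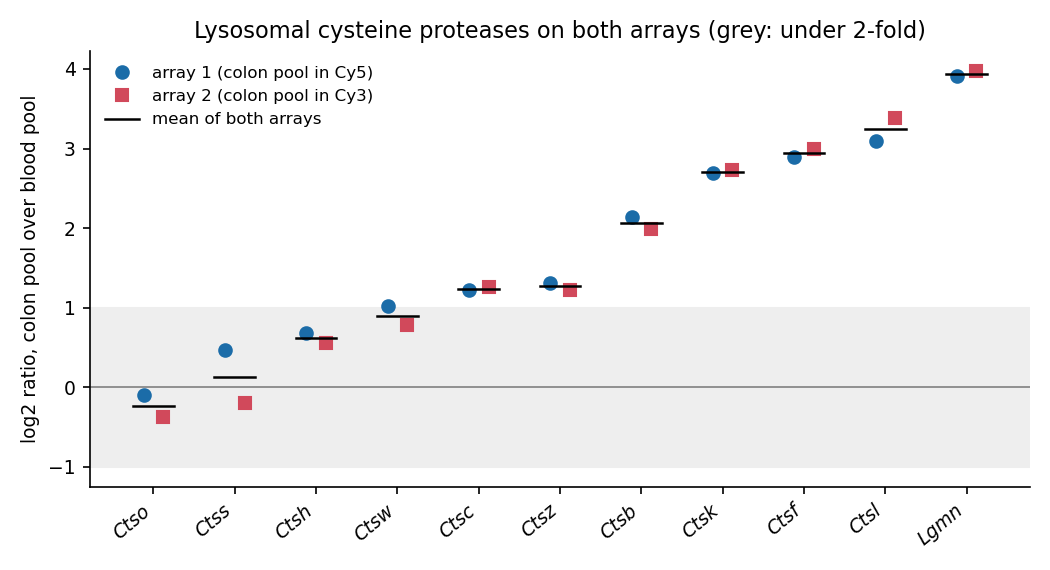
Log2 ratio of colon over blood of 11 lysosomal cysteine protease genes on array 1 (circles) and array 2 (squares), with the mean as a bar and the range under 2-fold in grey. The genes called higher range from 1.24 for Ctsc to 3.94 for Lgmn, and Ctss has opposite signs on the arrays.

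Genes with a cystatin-like fold outside the inhibitor family were listed as well, and 3 of 11 were measured. Rarres2 encodes chemerin, a secreted chemoattractant whose precursor has such a fold. It read 11027 (colon) and 191 (blood) on array 1, and 4188 and 373 on array 2, with a log2 ratio of 5.30 ± 0.07 (39.4-fold higher in the colon pool). Lxn, the gene of the carboxypeptidase inhibitor latexin, had -0.03 ± 0.13, and Camp, the gene of the neutrophil granule peptide cathelicidin, had -0.33 ± 0.02. The other 8, among them Ahsg, Fetub and Ngp, were not well above background in either pool, at 42.6 to 71.0, apart from Hrg, which passed in both pools on array 1 alone.

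The remaining cystatin genes gave no signal to compare. Of 11 listed, 10 had a probe, of which Gm4758 belongs to the stefin A cluster. The other 9, Cst8 to Cst13, Cstl1, Cstdc1 and Cstdc2, are mostly known from the reproductive tract, and read 42.4 to 72.6 without rising well above background in both arrays of a pool.

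Some genes listed as neutrophil markers were lower in the colon pool, as the called stefin A genes were. Whether the sorted monocytes of the blood pool made these transcripts themselves was not tested. Of 16 neutrophil markers 15 were measured, with a median of -0.33. Of these, 6 were lower in the colon pool and none was higher, beside 4.46% and 14.2% of all genes measured. The called markers with the largest changes were Mmp8 (-4.99 ± 0.30), S100a8 (-3.63 ± 0.08) and S100a9 (-3.28 ± 0.09). Ngp was not well above background in either pool, and the other 9 were not called, with mean ratios from -0.78 for Cebpe to 0.96 for Mmp9. Among those 9 were the granule and surface markers Camp (-0.33), Ltf (0.00) and Ly6g (0.11). Summed over the list, intensity above background was 48662 and 14582 in the colon pool on arrays 1 and 2, and 102275 and 202802 in the blood pool.

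Among Ly6C-high monocyte markers, all 9 measured genes were lower, with a median of -4.04. Chil3 had -6.98, Plac8 -4.55 and Ifitm6 -4.37, and the summed intensity was 52111 and 13245 in the colon pool against 511453 and 935992 in the blood pool. The part of neutrophils in the stefin A ratios was not tested.

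Cst7 is also made by natural killer and T cells. Of 12 markers of those cells 10 were measured. Of these, 4 were higher in the colon pool and none was lower, beside 14.2% and 4.46% of all genes measured. Cd28 had 3.09, Thy1 2.87, Zap70 2.67 and Gzmb 2.16. The measured markers not called ran from -0.05 for Gzma to 0.79 for Cd3g. Among them were Nkg7 (0.14), Prf1 (0.06), Klrb1c (0.44) and Cd3e (0.58). Cd8a was not well above background in either pool, Ncr1 passed in the colon pool on array 2 alone, and the median was 0.68. The summed intensity was 7510 and 2851 in the colon pool and 1956 and 3938 in the blood pool. The part of those cells in the Cst7 ratio was not tested, nor was that of fibroblasts, epithelial cells and plasma cells in the ratios of Cstb and Rarres2.

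Genes with the most similar pair of array ratios were listed for the lowest and the highest member. Nearest to Stfa2l1 were Ifi47, Mocos, Myo1f, Gramd4 and 3830612M24, at Euclidean distances of 0.039 to 0.073 in the log2 ratios of the 2 arrays. Nearest to Cstb were Pik3r1, Nkx2-3, Smim3, Mxra7 and Cpxm2, at 0.014 to 0.047. With 2 arrays of a dye swap this likeness is weak: 76 genes lay within 0.25 of Stfa2l1 and 183 within 0.25 of Cstb.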

How the data were processed

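The members and gene lists were chosen with earlier results of these data known. The deposited scanner files hold each spot's mean intensity and local background median in both channels, in linear units and before any normalization (file headers). A log10 ratio of the red to the green channel, computed by the software, is deposited beside them. Turned to colon over blood, which changes its sign on array 2, it equals the deposited value table to within 4.81e-08. Feature Extraction is given as 10.7.3.1 in the file headers and 10.5.1.1 in the submitters' processing notes. From 25 ng of total RNA per pool, per the labels' protocols, complementary RNA was amplified by priming with oligo-dT, which favours 3′ ends.

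Intensities were corrected with normexp (offset 50) and normalized by loess within each array in limma 3.58.1 (R 4.3.3), with control spots and outlier flags at weight 0. The log2 ratio was turned to colon over blood, so its direction comes from the dyes in the labels, and replicate spots were averaged. Of 39429 probes, 26055 were named by RefSeq accession and 8652 by the name in the file, while 4722 had none. The brightest probe stood for a gene. All members were named, as was every measured protease and relative. Of marker lists, up to 3 called genes with the largest absolute ratio were named, and for likeness the 5 nearest genes. Further genes of the neutrophil and of the natural killer and T cell lists were named after their values were seen. With 1 replicate no test was run, and the number of arrays limits the precision. Bounds set the bright pool's mean against, on each array, the higher of the lowest signal well above background and the dim spot's own. The calculation was tested on simulated data. Changed spots were drawn from those well above background in both pools on array 1, and the simulated calls used no background filter. The recovery rates thus do not cover probes such as those of Stfa1 and Stfa3, whose colon pool was not well above background. Spots under a background-subtracted intensity of 256 were called in 7 of 25 cases at a true log2 ratio of -1.5. Their median fitted ratio was -0.94. Brighter spots were called in 25 of 25. At a true ratio of -3 the calls were 21 of 22 and 28 of 28. A dim probe left uncalled therefore does not show that a difference was absent.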

Additional observations from a re-analysis of the deposited data

How the results depend on the processing

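No member changed sign while called: of 40 log2 ratios of members under other background, normalization or ratio settings, 14 moved by less than the SD of the arrays and 26 by more. Median centring in place of loess called 0 members higher (main 2), 4 members lower (main 3), 1138 genes higher (main 2224) and 4 proteases higher (main 7), and shifted the median of all genes from 0.06 to -0.28. The scanner software's ratio called 5 members lower, with Stfa1 and Stfa3 added. It called 3176 genes higher (main 2224) and 2081 genes lower (main 699), and its median of all genes was -0.12. The share of calls that were higher was 76.1% in the main setting, 67.1% under median centring and 60.4% with the software's ratio. Requiring both pools well above background left 1 member lower, Stfa2. At 4-fold on each array 0 members were higher and 0 lower, with 954 genes higher, 130 lower and 4 proteases higher. At 1.5-fold 3493 genes were higher and 1725 lower, and Stfa1 was added to the lower members, as it was without background correction, with an offset of 16, and on array 1 alone. Each array alone called 2 members higher and 3 to 4 lower, 2398 to 2641 genes higher and 847 to 859 lower, and 7 to 8 proteases higher and 0 lower. Why these values moved was not tested, beyond what each setting's construction fixes. No paired analysis was possible because the arrays are a dye swap by their labels and were counted as 1 replicate. Signal over background limits the stefin A genes: of the 11 cluster probes, Stfa2 alone had the colon pool well above background on each array.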
